A study of Mus musculus with 14 samples.

Results

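The liver of Snell dwarf mice was compared between 22 and 6 months of age. Snell dwarfs are homozygous for a loss of function of Pit-1, and they live longer than their normal littermates. The comparison held 7 of the 14 arrays of the study: 3 dwarfs at 22 months, carrying animal numbers 3, 4 and 8 in the labels, and 4 dwarfs at 6 months, numbered 83, 85, 87 and 89. The other 7 arrays held wild type liver, from mice 1, 2 and 24 at 22 months and mice 82, 84, 86 and 88 at 6 months, and served to ask whether an age difference in dwarfs differed from that in wild type. Each array measured total RNA from a snap-frozen piece of liver of 1 mouse on an Affymetrix mouse expression array of 12488 probe sets. The labels give no sex, strain background, diet, hour of killing or hybridisation batch, and no mouse is described as treated. The mutation is carried in the germ line, so every cell of these dwarfs has it and no effect can be placed in the liver itself. Throughout, array values are listed in the order of dwarfs 83, 85, 87 and 89 for 6 months and dwarfs 3, 4 and 8 for 22 months, in the signal units of the deposited file, and a difference is that of 22 minus 6 months on the log2 scale with its standard error (SE).

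Pit-1, encoded by Pou1f1, is the pituitary transcription factor from which somatotrophs, lactotrophs and thyrotrophs develop. Without it mice lack growth hormone, prolactin and thyroid-stimulating hormone, and through these they have little circulating IGF-1 and thyroid hormone. In liver, growth hormone acting through its receptor and STAT5 drives Igf1, Igfals, Socs2 and the genes expressed by sex, while thyroid hormone drives Thrsp, Me1 and Dio1. Lipid synthesis in hepatocytes is controlled by the sterol regulatory element binding proteins, of which the SREBF2 product acts mainly on cholesterol genes and the SREBF1 product mainly on fatty acid genes.

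All 7 dwarf arrays carried high signals of hepatocyte genes. The summed signal of 11 hepatocyte markers lay between 242300 and 319100 at 6 months and between 207500 and 241600 at 22 months, against 213100 to 263400 on the wild type arrays. Genes that need growth hormone were lower in dwarfs than in wild types at both ages. Igf1, the main liver growth factor released by growth hormone, gave 1170, 1596, 1278 and 1090 in the 6-month dwarfs and 821.8, 854.0 and 1338 in the 22-month dwarfs, against wild type means of 4435 ± 523.4 (SD, n = 4) at 6 months and 4144 ± 144.5 (SD, n = 3) at 22 months. Hsd3b5, a steroid dehydrogenase of male liver, was between 33.5 and 146.1 in all 7 dwarfs and between 4398 and 9938 in the 7 wild types. Egfr, the epidermal growth factor receptor, was at or near the floor of 55.0 set on all signals in the dwarfs, where the highest array read 61.8, and between 753.3 and 1769 in the wild types.

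The dwarf groups also differed in measures of the RNA and the array. Signal of 18S ribosomal RNA, a control probe set, was 59.8 to 148.5 on the 6-month arrays and 241.6 to 542.6 on the 22-month arrays. The 3' over 5' signal ratio of beta-actin, which rises as RNA is degraded or reverse transcription stops short, was 2.29 to 2.69 at 6 months and 1.25 to 1.57 at 22 months, and that of Gapdh 1.31 to 1.77 and 0.821 to 0.968. The 25th percentile of signal was 56.6 to 74.3 at 6 months and 47.3 to 54.7 at 22 months. Neither these measures nor the share of probe sets at the floor overlapped between the ages, and each of the 4 tests gave an exact two-sided permutation p of 0.0571, adjusted to 0.0571, which is the smallest p that 3 arrays against 4 allow. In dwarfs age and these measures therefore cannot be told apart, whereas in wild type 6-month mouse 88 lay with the 22-month arrays. With the 18S signal as a covariate of the fit 128 probe sets were called and with the 3' over 5' ratio 44, and counts of calls under both covariates are given beside most gene groups below. The slope of a covariate comes from the spread within groups, and the dwarf ages do not overlap in it. A call kept or lost with a covariate therefore does not tell age from these measures.

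**Figure D1:**
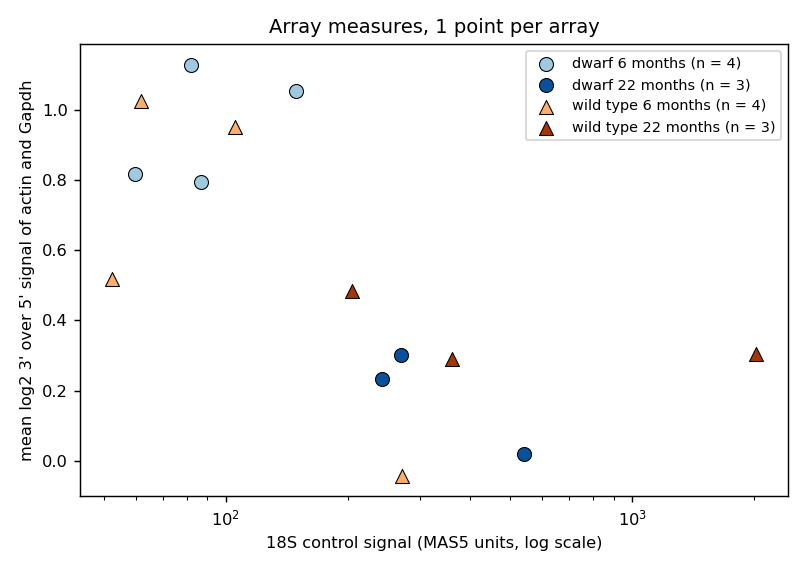
Each point is 1 array, placed by its 18S control signal (log scale) and the mean log2 ratio of 3' over 5' signal of beta-actin and Gapdh. The 22-month dwarfs (dark circles, 18S 241.6 to 542.6) lie apart from the 6-month dwarfs (pale circles, 59.8 to 148.5), while wild type arrays (triangles) overlap in the ratio.

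Ageing in dwarf liver was accompanied by higher signals of genes for cholesterol and fatty acid synthesis, of the plasma proteins Wfdc21, Orm1 and Orm3 and of peroxisomal enzymes, and by lower signals of Igfbp2, Pck1, Irs2 and several ribosomal protein genes. Of the single genes named here Wfdc21, Orm1 and Pck1 kept their calls under both covariates, and Orm3, Igfbp2 and Irs2 did not. No gene of the ribosomal list below was called with either covariate. Of 5469 genes tested, each by 1 probe set, 896 (16.4%) passed an adjusted p of 0.05 in limma, 434 higher (7.94%) and 462 lower (8.45%) at 22 months. At least 2-fold differences were called for 169 genes higher (3.09%) and 144 lower (2.63%). The signals of the 22-month and 6-month dwarfs did not overlap for 1586 genes (29%), higher for 12.8% and lower for 16.2% of genes. On probe sets, 1192 of 7218 (16.5%) were called, 574 higher (7.95%) and 618 lower (8.56%). The total ran from 523 without 22-month dwarf 3 to 1455 without 6-month dwarf 83. It was 662, 733 and 756 without dwarfs 4, 8 and 87. Dwarf 83 stood apart from the other 6-month dwarfs on the first principal component of the 7 arrays, which took 45.5% of the variance and placed it at -5.98, the other 6-month dwarfs between -33.9 and -24.2 and the 22-month dwarfs between 27.1 and 32.3. The split of called probe sets turned on the scaling: 48.2% were higher with the signals as deposited, 55.5% after quantile normalisation and 79.4% after scaling each array to its median, which moved the median difference of all probe sets from -0.09 to 0.12. The sign of differences smaller than that shift therefore depends on the scaling, and the median difference over all genes tested was -0.08.

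The 12 largest increases with non-overlapping signals held plasma and secreted proteins (Wfdc21, Orm1, Orm3, Wfdc2), lipid enzymes and carriers (Thrsp, Me1, Fasn, Ces3a, Fabp2), the annexin system (Anxa8, S100a10) and the small GTPase Rnd2. All 12 remained called without any single dwarf array. Wfdc21, a small secreted protein with a whey acidic protein domain, gave 195.6, 95.6, 103.3 and 78.2 at 6 months and 3416, 1959 and 3084 at 22 months. All old dwarfs lay far above all young ones. The difference was 4.63 ± 0.27 (24.7-fold, adjusted p = 9.93e-08), and it was 4.76 ± 0.37 and 4.60 ± 0.40 with the 18S signal and the 3' over 5' ratio as covariates. Wild type livers had high signals at both ages, 16226 ± 2730 (SD, n = 4) and 15798 ± 3033 (SD, n = 3), so the old dwarfs stood between the young dwarfs and the wild types.

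Orm1, an orosomucoid released by hepatocytes into plasma, read 352.1, 918.2, 142.2 and 193.2 in the young dwarfs and 4688, 4121 and 5142 in the old ones, a 15.1-fold difference (3.92 ± 0.45, adjusted p = 3.84e-04). Its relative Orm3 read 52.0, 95.8, 54.4 and 62.7 against 501.0, 477.8 and 555.6 (2.97 ± 0.47, adjusted p = 0.0015). In both genes the 3 old dwarfs were close to each other and above all young ones, but Orm3 sat at the floor on 2 of the young arrays. Its fold is thus a value against that floor. Wfdc2, also a secreted whey acidic protein family member, rose 11.9-fold, from 203.1, 147.1, 330.5 and 85.7 to 1806, 1648 and 2831 (3.58 ± 0.50, adjusted p = 6.83e-04). Here the old dwarfs also exceeded the wild type means of 672.4 ± 412.4 (SD, n = 4) and 682.4 ± 258.6 (SD, n = 3). Anxa8, an annexin that binds phospholipid in the presence of calcium, was near or below the floor in dwarfs 83, 87 and 89 (34.1, 35.8 and 53.9), at 158.5 in dwarf 85 and at 624.0, 540.0 and 535.4 in the old dwarfs (2.98 ± 0.40, adjusted p = 5.97e-04). With 3 of 4 young arrays under the floor, this difference and that between genotypes below are values against the floor. S100a10, the binding partner of annexin A2, rose from 756.1, 738.0, 397.1 and 226.5 to 2772, 1998 and 3376 (2.49 ± 0.37, adjusted p = 0.00112). Its other tested probe set differed by -0.30 and was not called, so the probe sets disagree. Ces3a, a hepatic carboxylesterase, rose 5.3-fold (2.41 ± 0.40, adjusted p = 0.00194) and Rnd2 4.93-fold (2.30 ± 0.51, adjusted p = 0.00829). Of the 12 genes 8 were called with the 18S covariate and 5 with the 3' over 5' covariate, and the call held under both for Wfdc21, Orm1, Thrsp and Anxa8.

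**Figure D2:**
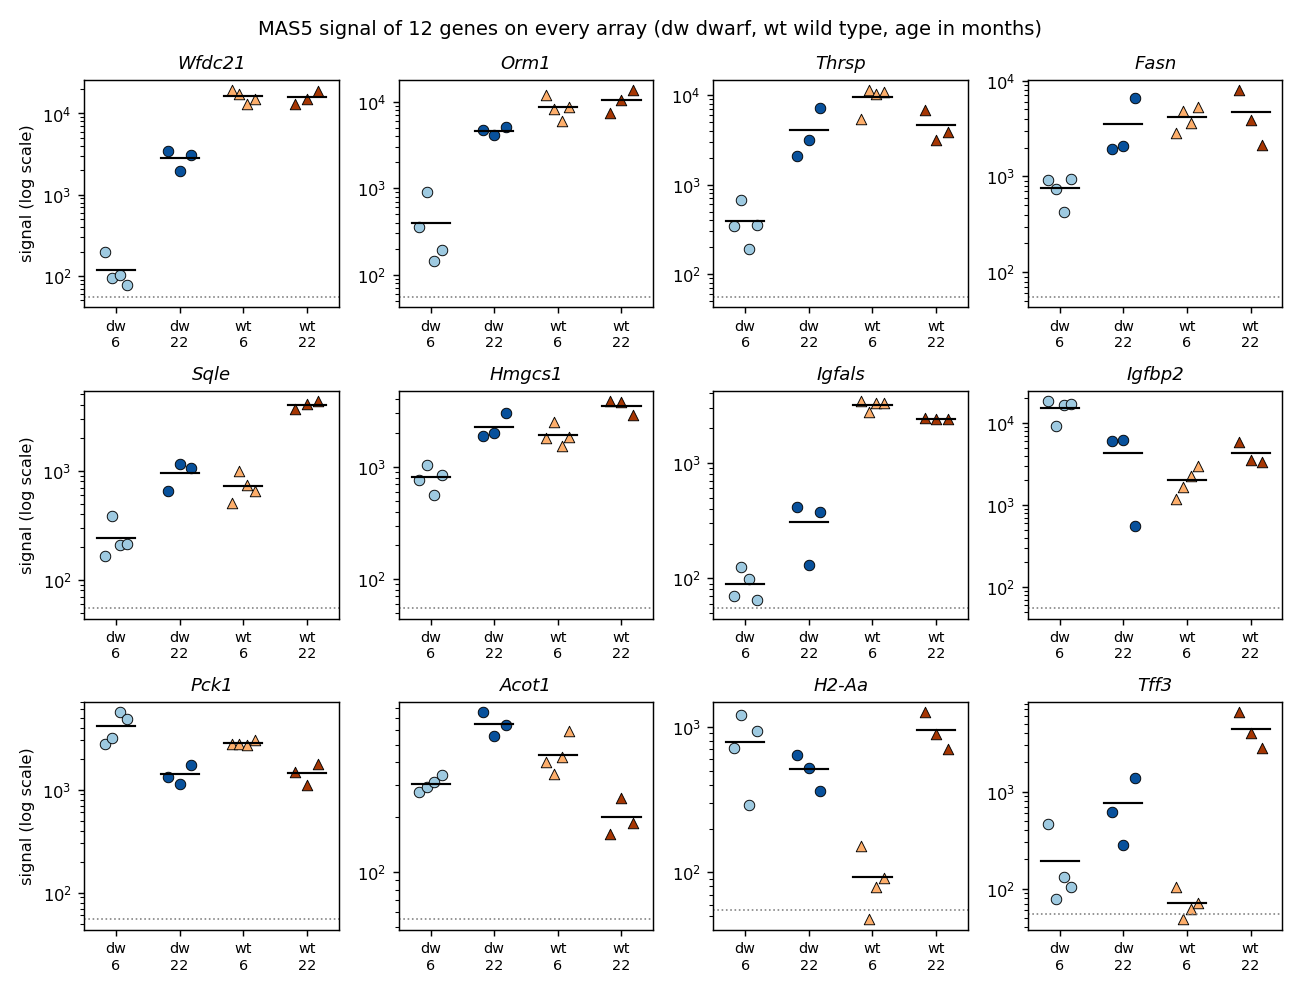
Signal of 12 genes on each array, on log axes, with 1 point per mouse, the group mean as a bar and the floor of 55.0 as a dotted line. Wfdc21 and Orm1 rise from the young to the old dwarfs without overlap while both wild type groups stay high, and Igfbp2 and Pck1 fall.

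Genes of cholesterol synthesis rose together in old dwarfs. Of 16 tested, 10 were called higher, against 7.94% of all genes, and none lower, with a list median of 1.12. Sqle, squalene epoxidase, rose from 167.3, 386.6, 209.3 and 212.5 to 649.1, 1158 and 1061, with all old dwarfs above all young ones (2.00 ± 0.28, 4-fold, adjusted p = 6.83e-04). Msmo1, the sterol methyl oxidase, rose 3.32-fold from 306.3, 615.9, 211.0 and 311.7 to 1016, 1189 and 1130 (1.73 ± 0.27, adjusted p = 0.00137). Dhcr7, the reductase that makes cholesterol from its last precursor, rose 2.86-fold (1.52 ± 0.22, adjusted p = 9.62e-04), and Hmgcs1, the synthase that feeds the pathway with HMG-CoA, rose from 767.4, 1040, 566.0 and 853.3 to 1879, 1989 and 3000 (1.51 ± 0.22, adjusted p = 0.0011). The remaining called members, outside the rule for naming genes and listed to complete the count, were Mvd (1.79), Fdps (1.75), Idi1 (1.72), Sc5d (1.25), Lss (0.98) and Ebp (0.62). Fdps had further probe sets at 1.79, which was called and has an f suffix, explained below, and at -1.15, which was not called.

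In wild type liver 4 of the 16, Sqle, Mvd, Lss and Dhcr7, were called higher at 22 months (background 1.41%), with a list median of 0.81, and for none did the difference between the genotypes pass the test. Sqle, for example, rose from 725.6 ± 205.6 (SD, n = 4) to 4033 ± 316.5 (SD, n = 3) in wild type, a difference of 2.51 (adjusted p = 3.59e-04), and the dwarf difference was lower by 0.51 (adjusted p = 0.605). In dwarfs the count was 9, 7 and 8 without old mice 3, 4 and 8 and 9 or 10 without any young mouse. Sc5d and Scd2, below, rest on probe sets with an f suffix, explained with the ribosomal genes. Mvd and Lss lost the call without dwarf 4 or dwarf 8 (adjusted p from 0.0587 to 0.0688), and Ebp without dwarf 3, 4, 87 or 89 (highest adjusted p = 0.139). With the 18S covariate 5 members were called, with the 3' over 5' covariate 2, which were Sqle and Idi1, and after median scaling 10.

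Fatty acid synthesis showed the same direction in dwarfs. Of 13 tested genes 9 were called higher and none lower, with a list median of 0.99, while in wild type the median was -0.07 and 1 gene was called. Thrsp, the thyroid hormone responsive protein that promotes lipogenesis, rose 10.2-fold, from 343.3, 674.6, 189.1 and 352.0 to 2090, 3131 and 7178 (3.36 ± 0.43, adjusted p = 5.26e-04). In wild type it read 9542 ± 2814 (SD, n = 4) and 4615 ± 1954 (SD, n = 3), a difference of -1.07 that was not called. Fasn, fatty acid synthase, read 911.3, 731.7, 421.5 and 928.9 in young and 1939, 2087 and 6592 in old dwarfs (2.06 ± 0.45, adjusted p = 0.00781). Dwarf 8 was the highest for both genes, and the old groups still did not overlap the young ones. Me1, cytosolic malic enzyme, a source of NADPH for lipogenesis, rose from 377.0, 305.9, 119.7 and 406.9 to 866.7, 1174 and 1745 (2.15 ± 0.35, adjusted p = 0.00177).

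Elovl5, an elongase of polyunsaturated fatty acids, rose by 1.09 ± 0.23 (adjusted p = 0.00687). Srebf1, the transcription factor gene for lipogenesis, rose from 2895, 2931, 1621 and 2002 to 4199, 4607 and 4665 (0.97 ± 0.25, adjusted p = 0.0173), a call lost without dwarf 4, 8 or 87 (adjusted p = 0.0574, 0.0532 and 0.0525). The other called members, again named to complete the count, were Scd2 (2.00), Gpam (0.99), Scd1 (0.71) and Fads1 (0.50). Gpam lost its call without dwarf 4 or 8 (highest adjusted p = 0.0848), Scd1 and Fads1 without any of the 3 old dwarfs or 1 of the young ones, dwarf 87 for Scd1 and dwarf 89 for Fads1 (highest adjusted p = 0.125 and 0.0986). Over the list the count was 8, 5 and 5 without dwarfs 3, 4 and 8, 7 without dwarf 87, 1 with the 18S covariate, which was Thrsp, and 2 with the 3' over 5' covariate. The difference between genotypes was itself called for Thrsp (4.42 ± 0.61, adjusted p = 0.00305), Me1 (2.58 ± 0.50, adjusted p = 0.0171, called in 13 of 14 fits that leave out 1 array) and Elovl5 (1.57, adjusted p = 0.0219, 11 of 14), and not for Fasn (2.05, adjusted p = 0.125).

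**Figure D3:**
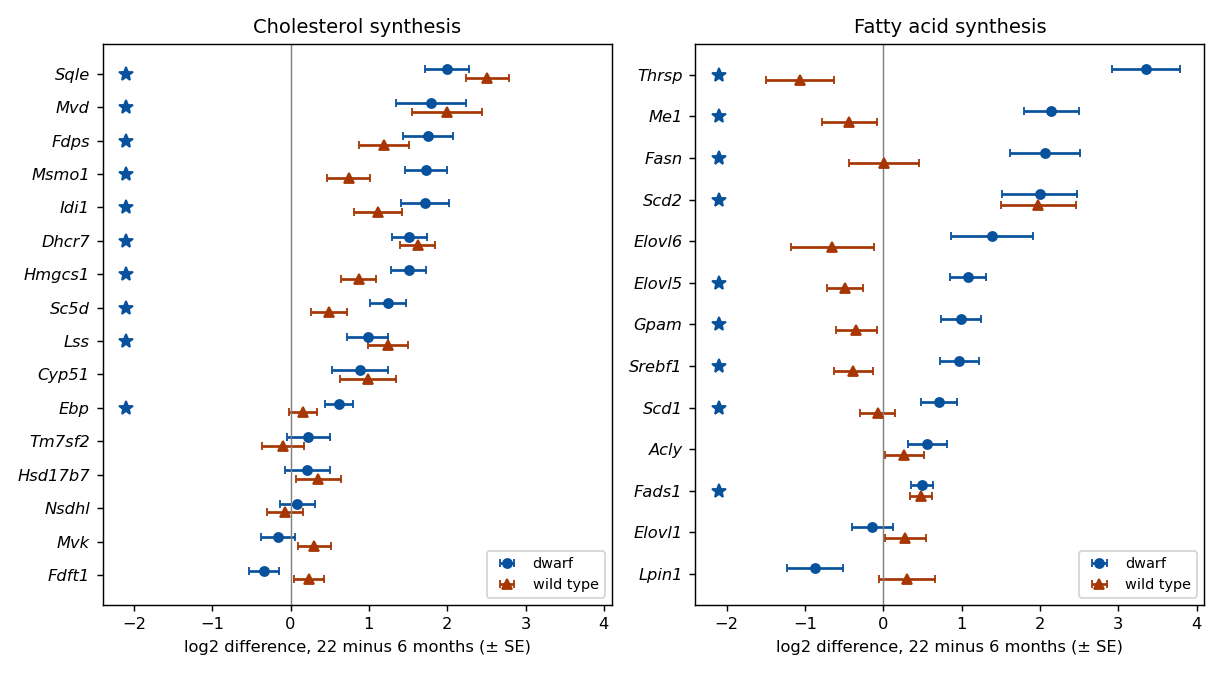
Log2 difference of 22 minus 6 months with its SE for every tested gene of the lists, in dwarf (circles) and wild type (triangles); stars mark genes called in dwarf. The 10 starred cholesterol genes are above 0 in both genotypes, whereas Thrsp, Me1 and Elovl5 are above 0 in dwarf and below 0 in wild type.

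Since these genes moved together, the bases in front of their start sites were read from the RefSeq promoter table on build GRCm38.p6, for the called members with the largest differences among those with 1 start site in the table. The 150 bases before the start are printed 5′ to 3′ in the sense of the gene. Capitals mark CCAAT, the letters bound by the factor NF-Y, on either strand (read as ATTGG on the other strand), and TCACNCCAC, a sterol response element, of which 1 occurs, in Hmgcs1. The windows are chr8:122443423-122443572 on the minus strand, chr8:64733579-64733728 on the minus strand, chr13:8885456-8885605 on the plus strand, chr13:119690201-119690350 on the plus strand, chr7:97417551-97417700 on the minus strand and chr11:120824548-120824697 on the minus strand.
Mvd: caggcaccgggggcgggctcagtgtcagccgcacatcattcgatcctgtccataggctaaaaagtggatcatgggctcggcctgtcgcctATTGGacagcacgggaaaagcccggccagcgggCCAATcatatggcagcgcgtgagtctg
Msmo1: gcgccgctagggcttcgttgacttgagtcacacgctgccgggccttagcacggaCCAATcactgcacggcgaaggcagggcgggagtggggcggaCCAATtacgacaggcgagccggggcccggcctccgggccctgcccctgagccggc
Idi1: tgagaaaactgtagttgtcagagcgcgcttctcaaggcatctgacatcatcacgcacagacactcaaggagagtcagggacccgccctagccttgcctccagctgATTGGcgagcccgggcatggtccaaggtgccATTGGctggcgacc
Hmgcs1: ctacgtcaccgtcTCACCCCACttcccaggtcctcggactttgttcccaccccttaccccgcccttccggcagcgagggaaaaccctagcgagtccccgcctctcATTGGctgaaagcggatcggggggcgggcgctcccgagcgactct
Thrsp: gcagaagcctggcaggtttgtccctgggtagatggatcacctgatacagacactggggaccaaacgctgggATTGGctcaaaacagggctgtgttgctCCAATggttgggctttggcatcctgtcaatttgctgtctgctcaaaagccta
Fasn: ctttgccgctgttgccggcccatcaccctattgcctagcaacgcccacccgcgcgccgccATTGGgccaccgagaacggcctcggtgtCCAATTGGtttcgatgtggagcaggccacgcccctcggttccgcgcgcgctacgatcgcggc
In Fasn, 2 of the matches overlap as CCAATTGG.

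Over the 250 bases before a start, both strands searched, CCAAT was found in 13 of 13 cholesterol genes that the table holds (of 16 tested) and in 7 of 10 fatty acid genes (of 13 tested). Of the called members it was found in 8 of 8 and 6 of 6. The same letters occur in 33.8% of all 32851 promoters of that length and, counting any start of a gene, in 40.4% of the 4421 tested genes in the table. TCACNCCAC was found in 1 of the 13 cholesterol genes, Hmgcs1, against 1.45% of tested genes, and in none of the 10 fatty acid genes. The E-box CACGTG was found in 3 of 13 and 1 of 10, against 10.8% of tested genes. These are matches of letters in a window, and no binding was measured.

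Peroxisomal and PPAR-alpha target genes split, beside 7.94% higher and 8.45% lower over all genes. Of 21 tested, 6 were called higher and 2 lower in old dwarfs, and the list median was 0.30 in dwarf and -0.66 in wild type, where 4 were called lower and none higher. Hsd17b4, the multifunctional enzyme of peroxisomal beta-oxidation, rose from 2585, 1562, 2096 and 2167 to 5310, 5055 and 4466 (1.25 ± 0.16, adjusted p = 5.26e-04). Ehhadh, its counterpart in the same pathway, rose from 537.7, 487.7, 391.6 and 675.9 to 1102, 1283 and 1264 (1.24 ± 0.22, adjusted p = 0.00244). In both the old dwarfs were tightly grouped and above every young one. Acot1, an acyl-CoA thioesterase, moved in opposite directions in the genotypes: 274.0, 291.9, 311.9 and 340.2 became 753.8, 556.8 and 641.1 in dwarfs (1.09 ± 0.21, adjusted p = 0.00481), and 441.9 ± 107.2 (SD, n = 4) became 201.3 ± 47.9 (SD, n = 3) in wild type (-1.13, adjusted p = 0.0141).

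The difference between the genotypes was called for 6 genes of the list, all more positive in dwarf, among them Acot1 (2.22, adjusted p = 0.00305), Ehhadh (1.96, adjusted p = 0.00412), Hsd17b4 (1.59, adjusted p = 0.00305) and Cyp4a14 (1.83, adjusted p = 0.0147, called in 13 of 14 fits that leave out 1 array). Cyp4a14, an omega-hydroxylase of fatty acids, differed by -0.10 in dwarfs (adjusted p = 0.798), while in wild type it fell from 1104 to 284.5. Ppara, the receptor gene, differed by -0.07 in dwarfs (adjusted p = 0.811). The dwarf count of genes higher on this list was 3, 3 and 4 without dwarfs 3, 4 and 8, and 1 with either covariate. The 2 genes called lower were called without dwarf 85, numbered 3 without dwarf 83, and were not called without any other dwarf. Of 15 genes of mitochondrial fatty acid oxidation 4 were called higher (2 without dwarf 3) and 2 lower (0 without dwarf 3, 4, 87 or 89, and 1 without dwarf 8 or 85). Decr1, the dienoyl-CoA reductase, rose from 958.7, 639.6, 865.7 and 795.9 to 1678.5, 1613 and 1362 (0.94 ± 0.15, adjusted p = 0.00173) and kept its call under both covariates, and Etfa, an electron transfer flavoprotein subunit, rose by 0.64 ± 0.15 (adjusted p = 0.0116).

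Genes of glucose metabolism moved in both directions, beside 7.94% higher and 8.45% lower over all genes. Pck1, the enzyme that starts gluconeogenesis from oxaloacetate, fell from 2798, 3194, 5613 and 4882 to 1330, 1144 and 1742, a drop seen in all old dwarfs (-1.52 ± 0.23, adjusted p = 0.00135) and also called under both covariates. In wild type it fell by 0.99 (adjusted p = 0.0343), and the genotypes were not called different (-0.52, adjusted p = 0.499). Pklr, liver pyruvate kinase at the end of glycolysis, rose from 572.9, 935.2, 602.2 and 651.0 to 1443, 1991 and 2586 (1.53 ± 0.24, adjusted p = 0.00142), where wild type differed by -0.06 (difference between genotypes 1.59, adjusted p = 0.025, called in 12 of 14 fits that leave out 1 array). Pcx, pyruvate carboxylase, rose by 0.88 ± 0.19 (adjusted p = 0.00783), with another probe set at 0.05. Of 17 genes of the list 4 were called higher and 2 lower, the latter 1 without dwarf 3, 4, 8 or 87. With the 18S covariate 1 was higher and 1 lower, and with the 3' over 5' covariate 1 lower.

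In the growth hormone and IGF axis 1 of 20 tested genes rose and 3 fell (7.94% and 8.45% over all genes), with a list median of -0.51. With either covariate none of the 20 was called, and the adjusted p of Igfbp2 was then 0.183 (18S) and 0.256 (3' over 5'), that of Igfals 0.0599 and 0.18. Igfbp2, a binding protein that is high when growth hormone is low, fell from 18452, 9311, 16762 and 17123 to 5985, 6232 and 554.8 (-2.44 ± 0.62, adjusted p = 0.016). All old dwarfs were below all young ones, and dwarf 8 was far below the other old dwarfs. Wild type signals were 2027 ± 775.2 (SD, n = 4) and 4273 ± 1383 (SD, n = 3), and the difference between genotypes was -3.55 ± 0.87 (adjusted p = 0.0455, called in 4 of 14 fits that leave out 1 array). Igfals, which encodes a partner that keeps IGF-1 bound in the circulation, rose from 70.4, 126.0, 98.5 and 64.6 to 412.4, 130.1 and 376.6 (1.65 ± 0.32, adjusted p = 0.00448). Dwarf 4 sat just above the highest young dwarf, and all dwarfs lay far below the wild type means of 3182 and 2400.

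Irs2, an adaptor of the insulin receptor, fell from 730.5, 282.2, 671.9 and 282.2 to 106.8, 258.8 and 68.8 (-1.84 ± 0.55, adjusted p = 0.0329), a call lost without dwarf 3, 8, 83 or 87 (adjusted p = 0.107, 0.134, 0.0675 and 0.0884). Igf2, the fetal insulin-like growth factor, fell by 1.26 ± 0.30 (adjusted p = 0.0114), lost without dwarf 4 (adjusted p = 0.053). Igf1 itself differed by -0.37 ± 0.18 (adjusted p = 0.153), and without dwarf 8, the highest old mouse, by -0.60 (adjusted p = 0.034). Socs2, the STAT5-induced inhibitor of growth hormone signalling, was 223.8, 196.3, 263.4 and 232.6 in young and 148.5, 149.7 and 88.5 in old dwarfs, which do not overlap, and the test was missed (-0.86 ± 0.32, adjusted p = 0.0735). Ghr, the receptor, differed by 0.27 (adjusted p = 0.159) in dwarfs on the probe set used, while its other probe set rose by 1.47 (adjusted p = 0.0167), so the probe sets disagree. The first fell by 0.61 in wild type, and the difference of 0.88 was called (adjusted p = 0.0224, and in 12 of 14 fits that leave out 1 array). Igfbp1, an insulin-suppressed binding protein, ranged from 3520 to 16385 in young and from 1773 to 5280 in old dwarfs (-1.28, adjusted p = 0.242), and Egfr was at or near the floor on all dwarf arrays.

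Genes that respond to thyroid hormone did not move as a set. Of 13 tested, 3 rose, namely Thrsp, Me1 and Fasn, which are also on the fatty acid list, and 2 fell, with a list median of -0.05. The lower ones numbered 1 without any dwarf but 89. With the covariates 1 (18S) and 2 (3' over 5') were higher and 1 lower. Dio1, the type 1 deiodinase, was at or near the floor in both dwarf groups, 6.1 to 63.3 and 5.8 to 21.9, against wild type means of 309.4 and 143.1. Cyp7a1, which sets the pace of bile acid production, read 157.5, 198.5, 93.4 and 160.4 in young and 318.6, 311.7 and 218.9 in old dwarfs without overlap, and was not called (0.92 ± 0.52, adjusted p = 0.233). Of genes expressed by sex, 1 of 8 male-biased and 1 of 8 female-biased genes were called, both higher (7.94% of all genes), the latter only without dwarf 85 among the fits that leave out 1 dwarf. Serpina12, the male-biased adipokine vaspin, was below the floor in all young dwarfs (30.3 to 38.2) and read 112.0, 122.3 and 451.8 in old ones, at least 3.34-fold higher (adjusted p = 0.00604), against a wild type mean of 2250 at 6 months. Among female-biased cytochromes Cyp2b13 read 2431, 3074, 2178 and 2802 in young and 6274, 6060 and 4143 in old dwarfs and missed the test (1.06 ± 0.38, adjusted p = 0.0683), and Cyp2b9 differed by 0.15 (adjusted p = 0.86). With either covariate none was called. The sex of the mice is not in the labels.

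Enzymes of detoxification rose in part, beside 7.94% higher and 8.45% lower over all genes. Of 19 genes regulated by CAR and PXR, the nuclear receptors for foreign compounds, 4 were called higher and 1 lower, and 5 had a more positive age difference in dwarf than in wild type. Aldh1a7, an aldehyde dehydrogenase, rose from 2158, 2692, 1349 and 1727 to 4486, 4968 and 6534 (1.46 ± 0.23, adjusted p = 0.00142), and Aldh1a1 from 16806, 16792, 11798 and 10725 to 22432, 22659 and 24765 (0.76 ± 0.16, adjusted p = 0.00752). Gstm3, a glutathione transferase, rose from a range of 10303 to 13142 to one of 19082 to 26268 (0.93 ± 0.15, adjusted p = 0.00144). The Gstm3 probe set has an f suffix, and its other one rose by 2.20. These genes kept their calls with the 18S covariate and not with the 3' over 5' covariate. Nr1i3, which encodes CAR, differed by 0.11 (adjusted p = 0.794). In the list of NRF2 targets and antioxidant enzymes 5 of 22 rose and 2 fell. Prdx3, the mitochondrial peroxiredoxin, rose 2.12-fold from 2234, 1978, 1764 and 1647 to 4385, 4034 and 3649 (1.08 ± 0.14, adjusted p = 5.98e-04), also under both covariates, and Gsr, glutathione reductase, rose by 0.88 ± 0.14 (adjusted p = 0.00151). The count of 5 was 2, 3 and 3 without dwarfs 3, 4 and 8. Cat, catalase, differed by 0.20 (adjusted p = 0.402), and Sod2, the mitochondrial superoxide dismutase, by 0.62 (adjusted p = 0.0544, and 0.82 with adjusted p = 0.00679 without dwarf 83).

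Protein folding and turnover genes were called higher in part, beside 7.94% higher and 8.45% lower over all genes. Of 24 genes of endoplasmic reticulum chaperones and stress 5 rose and 1 fell, counts that were 10 and 0 after median scaling, 3 without dwarf 3, 8 or 85, and 0 and 1 higher with the 18S and 3' over 5' covariates. Pdia6, a protein disulfide isomerase, rose from 371.7, 534.2, 562.7 and 240.6 to 1376, 961.1 and 1883 (1.74 ± 0.33, adjusted p = 0.0037), and its further probe sets rose by 1.38 and 1.79. Pdia4, of the same family, rose from 743.4, 639.0, 1002 and 638.3 to 1991, 1726 and 1971 (1.35 ± 0.24, adjusted p = 0.00254), and Manf, a secreted stress factor of the reticulum, rose by 1.13 ± 0.21 (adjusted p = 0.00326). The master chaperone gene Hspa5 differed by 0.40 (adjusted p = 0.0911). Of 28 proteasome genes 6 rose and 1 fell (higher in 3 without dwarf 3, 4 or 85, in 4 without dwarf 8, 87 or 89, and in none under either covariate), led by Psmd13 (1.09 ± 0.24, adjusted p = 0.00842), Psmb5 (0.93 ± 0.18, adjusted p = 0.00455, another probe set at 0.15) and Psma4 (0.77 ± 0.16, adjusted p = 0.00572). The 1 lower call on that list was lost whichever dwarf was left out. Among heat shock genes Hspa1b, the inducible HSP70, fell by 1.17 ± 0.25 (adjusted p = 0.0072), while in wild type it differed by 0.50, and the genotypes differed by -1.66 (adjusted p = 0.0241, called in 11 of 14 fits that leave out 1 array). Tcp1, a subunit of the CCT chaperonin, fell by 0.93 ± 0.21 (adjusted p = 0.00848). Some other subunits of that chaperonin were called higher, 1 of them by 0.82 ± 0.20 (adjusted p = 0.0131). The rest of those tested were not called, with differences from -0.44 to 0.48. Hspa8 differed by -0.42 (adjusted p = 0.147). Of 23 heat shock genes 3 were called higher and 2 lower (0 to 4 and 2 to 3 without 1 dwarf, none with either covariate).

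Cytosolic ribosomal protein genes leaned downwards, beside 7.94% higher and 8.45% lower over all genes. Of 19 tested, 7 fell and none rose, with a list median of -0.34 in dwarf and 0.23 in wild type. The number lower was 2 after median scaling, 3, 3 and 2 without dwarfs 3, 4 and 8, 4 without dwarf 83, 87 or 89, 9 without dwarf 85, and none with either covariate. Rpl32 fell from 613.4, 819.0, 872.0 and 896.1 to 331.0, 384.9 and 500.7 (-0.99 ± 0.21, adjusted p = 0.00692). Of 38 oxidative phosphorylation genes 2 rose (7 without dwarf 83) and 2 fell, of which 1, Uqcrc2, was called with the 18S covariate and none with the other. Uqcrc2, a core subunit of complex III, fell from 4161, 4482, 6776 and 5571 to 1821, 1981 and 1864 (-1.45 ± 0.22, adjusted p = 0.00137), and it fell in wild type as well (-1.24, adjusted p = 0.0109). The probe sets of Rpl32 and Uqcrc2 carry an r and an f suffix, which the manufacturer gives to sets designed under relaxed rules that may bind other transcripts.

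Secreted liver proteins changed gene by gene, beside 7.94% higher and 8.45% lower over all genes. Of 28 acute phase genes 4 rose, Orm1 and Orm3 among them, and 4 fell, with 2 higher without dwarf 3, 8 or 89 and 2 and 1 lower without dwarfs 3 and 4. With each covariate 1 was called, Orm1. Saa2, a serum amyloid A that climbs in inflammation, ranged from 336.3 to 1213 in young and from 1059 to 2238 in old dwarfs (1.11 ± 0.81, adjusted p = 0.363), against wild type means of 16350 and 12826. Lcn2, the iron-siderophore binder lipocalin 2, fell by 0.99 ± 0.23 (adjusted p = 0.00963) on its r-suffix probe set, and its other probe set, not called, differed by 2.13, so no direction can be given for it. Mbl2, mannose-binding lectin, rose by 0.73 ± 0.14 (adjusted p = 0.00442), among 3 of 19 complement genes called higher (1 without dwarf 3, 5 without dwarf 83, 1 with the 18S covariate and none with the other). Of the 19, 1 was called lower (0 to 2 without 1 dwarf, none with either covariate). Mttp, the transfer protein that loads lipid onto apolipoprotein B, rose from 116.1, 82.1, 114.9 and 181.0 to 354.8, 298.0 and 527.2 (1.69 ± 0.27, adjusted p = 0.00168), with a difference between genotypes of 1.78 (adjusted p = 0.0266, called in 10 of 14 fits that leave out 1 array). Fabp2, an intestinal fatty acid binding protein also made in liver, rose from 106.0, 170.1, 87.2 and 164.9 to 444.4, 488.0 and 837.6 (2.16 ± 0.33, adjusted p = 0.00137). In amino acid breakdown Gldc, glycine decarboxylase, rose from 963.5, 982.4, 965.5 and 530.2 to 2795, 2569 and 2738 (1.69 ± 0.27, adjusted p = 0.00164). In that list 5 of 21 were called higher and 2 lower, higher in 1, 2 and 4 without dwarfs 3, 4 and 8, in 3 without dwarf 85, 87 or 89 and in none with either covariate. Scp2, a peroxisomal thiolase and sterol carrier, rose by 1.13 ± 0.25 (adjusted p = 0.00829), 1 of 2 genes of 15 called in bile acid synthesis and transport. Hfe, the hemochromatosis gene that signals iron load, rose by 0.96 ± 0.20 (adjusted p = 0.00679), and Mt1, metallothionein 1, ranged from 21558 to 34166 in young and from 12530 to 24368 in old dwarfs (-0.52, adjusted p = 0.443).

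The 12 largest decreases were mostly genes of low signal. Besides Igfbp2 and Irs2 they were Ercc1, Gsdme, Rps13, Myf6, Map3k12, Ptprb, Pomc, Adam28, Il1rn and Stmn3. The median of their 22-month mean signals was 127.5, 6 of the 12 lay under the filter signal of 185.2 on every 22-month array, 3 had an old array at the floor and 3 rest on probe sets with a suffix for possible cross-hybridisation (Rps13, Adam28 and Stmn3). Ercc1, a nuclease subunit of nucleotide excision repair, fell from 373.4, 546.9, 384.4 and 460.9 to 76.6, 84.1 and 95.2 (-2.36 ± 0.43, adjusted p = 0.00302). Gsdme, a pore-forming gasdermin, fell from 637.2, 891.3, 1472 and 1578 to 161.6, 223.6 and 273.2 (-2.32 ± 0.47, adjusted p = 0.00572). Both were also lower at 22 months in wild type without passing the test (-1.57 and -1.79). Young wild type mouse 88 read 110.0 for Ercc1 and 200.9 for Gsdme, near the old wild types at 69.2 to 110.6 and 178.7 to 191.3. The other young wild types read 220.2 to 549.4 and 704.4 to 1181. Mouse 88 is the young mouse whose array measures lay with the 22-month arrays, and the part of those measures here was not tested. Il1rn, the interleukin-1 receptor antagonist, fell from 1079, 575.8, 1262 and 1817 to 395.3, 240.1 and 280.7 (-1.87 ± 0.45, adjusted p = 0.0121), and young wild types had 72.7 ± 38.4 (SD, n = 4). Without any one dwarf array 6 of the 12 remained called: Map3k12 and Pomc each lost the call in 4 of the 7 fits, as Irs2 did, and Ptprb and Il1rn without dwarf 4 (adjusted p = 0.0625 and 0.0513) and Stmn3 without dwarf 3 (adjusted p = 0.0638).

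For Map3k12, a kinase known from neurons, these were the fits without dwarfs 3, 8, 87 and 89 (adjusted p up to 0.0976), and for Pomc, the melanocortin precursor of the pituitary, those without dwarfs 3, 4, 85 and 87 (up to 0.116). The differences were -2.20 for Rps13, -2.16 for the muscle factor Myf6, -2.07 for Map3k12, -2.05 for the endothelial phosphatase Ptprb, -1.98 for Pomc, -1.88 for the metalloprotease Adam28 and -1.84 for the microtubule regulator Stmn3. With the 18S covariate 1 of the 12 was called, Stmn3, and with the 3' over 5' covariate none. By signal level, genes called lower outnumbered genes called higher in the lower and middle tertiles of mean signal (110 against 59 and 177 against 122), whereas the upper tertile had 253 higher and 175 lower. That shift runs alongside the lower 25th percentile of the old arrays, and its part in these decreases was not tested.

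Among markers of the other cells of liver, called genes were lower, with 2 exceptions. In these bulk samples fewer cells of a type and less RNA per cell cannot be told apart. Of 10 endothelial markers 3 were called lower, but 0 without dwarf 3 or 89 and 1 without dwarf 4, 8, 83 or 87. The summed signal of the 15 on the array was 6157 to 7577 at 6 months and 4939 to 5266 at 22 months. Of 10 stellate cell and fibroblast markers 2 were called lower, 1 without dwarf 3 or 4 (sums of 14 markers, 12100 to 15550 against 9278 to 10920). Bgn, biglycan, a matrix proteoglycan, fell by 0.72 ± 0.16 (adjusted p = 0.0081). Of 7 neutrophil and myeloid markers 2 were lower (sums of 15 markers, 3232 to 4705 against 2492 to 2800), with Camp, the cathelicidin, down from 340.2, 533.0, 688.1 and 553.0 to 242.4, 233.7 and 151.0 (-1.33 ± 0.29, adjusted p = 0.00808). The other was Lcn2, whose probe sets disagree, so that no direction can be given for it.

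Hepatocyte markers were lower too in 3 of 11, a count of 0 without dwarf 3, 4, 8, 87 or 89. Among them was Alb, albumin (-0.43 ± 0.14, adjusted p = 0.046), whose call was lost without dwarf 3, 4, 8, 87 or 89 (highest adjusted p = 0.158) and whose sign turned under quantile normalisation (0.01). No hepatocyte marker was called lower after median scaling, nor any endothelial one. Sums for Kupffer cells and macrophages (18 markers) were 8458 to 9458 at 6 months and 7828 to 8408 at 22 months, and for T and NK cells (18 markers, of which Cd5, Cd8a, Gzmk and Ccl5 were at the floor on every dwarf array) 1559 to 2327 and 1114 to 1543. Sums for B and plasma cells (3086 to 3651 and 2364 to 3780), pancreatic acinar cells (2102 to 3255 and 2028 to 3199) and adipocytes (1214 to 2019 and 1375 to 1974) overlapped between the ages, with no marker called. The exceptions were Alas2, the first enzyme of heme synthesis in erythroid cells, which rose from 692.7, 791.9, 524.6 and 400.1 to 1705, 1442 and 1396 (1.37 ± 0.22, adjusted p = 0.0016), and Tff3, a mucosal peptide on the bile duct list. The erythroid sums overlapped (10670 to 16630 and 11920 to 20180). Of the bile duct list, Krt7, Krt19, Epcam and Cldn7 were at the floor on every dwarf array. With the 18S covariate Camp was the only cell type marker called, and with the 3' over 5' covariate none was. The part of cell make-up in the gene differences was not tested.

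**Figure D4:**
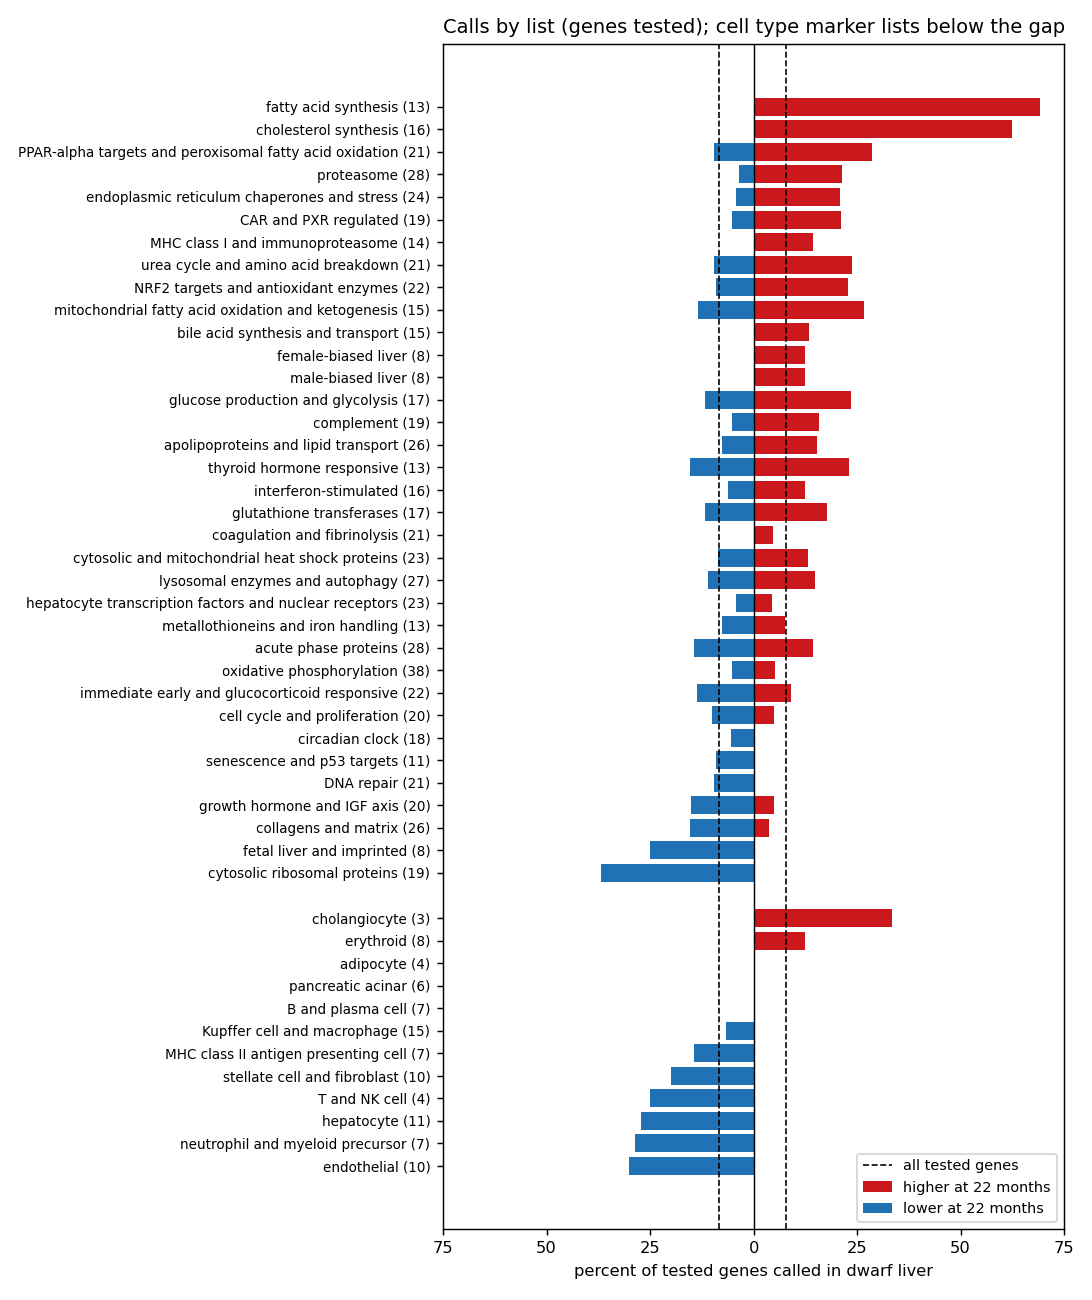
Share of tested genes called higher (right) or lower (left) in 22-month dwarfs for each list, with the number tested in brackets and dashed lines at the shares over all genes, 7.94% and 8.45%. The fatty acid and cholesterol lists reach 9 of 13 and 10 of 16, and ribosomal proteins 7 of 19 on the lower side.

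Genes often followed in ageing tissue were called in both directions, beside 7.94% higher and 8.45% lower over all genes. Of 11 genes of senescence and p53 targets tested 1 was called, lower, and none was lower without dwarf 3, 4 or 87. Cdkn1a, the cell cycle inhibitor p21, read 53.5, 237.9, 80.5 and 52.7 in young and 155.0, 224.6 and 277.0 in old dwarfs (1.29 ± 0.53, adjusted p = 0.108), and without dwarf 85 the difference was 1.77 (adjusted p = 0.0269). Of 21 DNA repair genes 2 were called lower (1 without dwarf 8) and of 20 cell cycle genes 2 lower and 1 higher, the lower ones numbering 0 without dwarf 3, 4, 85 or 87 and 1 without dwarf 8 or 89. The latter was Stmn1, a microtubule destabiliser of dividing cells, up from 155.9, 217.4, 56.0 and 174.9 to 511.9, 557.0 and 497.6 (1.95 ± 0.43, adjusted p = 0.00847). Of 18 clock genes 1 was called, Nfil3 (-0.94 ± 0.21, adjusted p = 0.00901, another probe set at -0.14). Among immediate early and glucocorticoid responsive genes, 2 higher and 3 lower of 22 (1 lower without dwarf 3, 4, 87 or 89), Fkbp5, a chaperone of the glucocorticoid receptor, rose from 445.4, 281.1, 330.3 and 224.0 to 842.2, 671.6 and 1096 (1.46 ± 0.32, adjusted p = 0.00809) and Jund, an AP-1 subunit, fell from 5869, 6607, 9744 and 8018 to 3608, 3727 and 4604 (-0.91 ± 0.20, adjusted p = 0.00761). Of 14 genes of MHC class I and the immunoproteasome 2 rose, among them H2-D1 (0.55 ± 0.13, adjusted p = 0.0104, an f-suffix set, other probe sets 0.81 and 0.68). Of 27 lysosomal and autophagy genes 4 rose (2 without dwarf 3 or 4) and 3 fell (0 without dwarf 8 or 89, 1 without dwarf 3 or 87), with Ctsd, the protease cathepsin D, up from 3230, 2223, 2098 and 2246 to 4242, 4582 and 3909 (0.81 ± 0.18, adjusted p = 0.00803), as in wild type (0.71, adjusted p = 0.0454). With either covariate no gene of the senescence, DNA repair, cell cycle, clock, immediate early or lysosomal lists was called. Among other lists, 3 of 17 glutathione transferases were higher and 2 lower. The same counts were 4 and 2 of 26 apolipoprotein and lipid transport genes, 2 and 1 of 16 interferon-stimulated genes and 1 and 0 of 21 coagulation genes. They were 1 and 1 of 13 metallothionein and iron genes, 1 and 4 of 26 collagen and matrix genes, 1 and 1 of 23 hepatocyte transcription factors and 0 and 2 of 8 fetal and imprinted genes. These small counts depended on single mice: without 1 dwarf the higher ones ran from 0 to 4 for interferon-stimulated genes and 1 to 4 for glutathione transferases, and the lower ones from 1 to 5 for collagens and 0 to 2 for fetal genes. With the 18S covariate 1 glutathione transferase and 1 lipid transport gene were called, and with the 3' over 5' covariate none of these lists had a call.

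Wild type liver gave fewer calls between the same ages, 136 of 5469 genes (2.49%), 77 higher (1.41%) and 59 lower (1.08%). On probe sets the 180 wild type calls ran from 60 without 22-month mouse 1 to 457 without 6-month mouse 88, with 69, 68, 65 and 62 without mice 2, 24, 84 and 86. The numbers of calls in the genotypes are therefore not a measure of how far each aged. The age differences of dwarf and wild type share no array. The genes called in both numbered 56, which is 6.25% of those called in dwarf and 41.2% of those called in wild type, and 51 of them went the same way. Across all genes the differences correlated with Pearson's r = 0.401 (0.399 by Spearman's rank correlation), a description over genes, which are not independent. Of the genes called in dwarf 77.1% had the same sign in wild type, and of all genes 65.1%. The 18S signal ran higher at 22 months in wild type too, 204.3 to 2021 against 52.6 to 271.5 at 6 months. Its part in the correlation and the shared signs was not tested.

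The difference between the age effects of the genotypes was called for 128 genes (2.34%), more positive in dwarf for 96 (1.76%) and more negative for 32 (0.585%). Of these, 92 were called in dwarf alone, 23 in wild type alone, 6 in both and 7 in neither. On probe sets 158 (2.19%) were called, and 48 to 169 when 1 of the 14 arrays was left out, fewest without dwarf 3 and then without wild type 24 (57), dwarf 8 (69), wild type 1 (85), dwarf 4 (88), wild type 82 (101) and dwarf 87 (103). The most positive were Wfdc21 (4.67 ± 0.38, adjusted p = 1.39e-05), Thrsp, Anxa8 (3.82 ± 0.56, adjusted p = 0.00305), Orm1 (3.65 ± 0.64, adjusted p = 0.00875), Aqp4 and Wfdc2 (3.37 ± 0.70, adjusted p = 0.0224, called in 10 of the 14 fits). Aqp4, a water channel, read 104.2, 270.8, 186.0 and 161.1 in young and 303.9, 232.9 and 635.2 in old dwarfs, which overlap (1.06, adjusted p = 0.0714, and 1.28 with adjusted p = 0.0471 without dwarf 85). In wild type it fell from 353.1 ± 115.2 (SD, n = 4) to 69.0 ± 14.1 (SD, n = 3), giving a difference of 3.37 (adjusted p = 0.00521).

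The most negative differences were those of H2-Aa, Tff3, Igfbp2, Ahnak, Il1rn and Cd63, of which H2-Aa, Tff3 and Cd63 were called higher with age in wild type. H2-Aa, the MHC class II alpha chain of antigen presenting cells, rose from 92.3 ± 43.1 (SD, n = 4) to 950.2 ± 279.7 (SD, n = 3) in wild type, while dwarfs read 714.9, 1210, 288.8 and 931.3 young and 642.6, 522.9 and 363.2 old (difference between genotypes -3.88 ± 0.59, adjusted p = 0.00379). Young dwarfs 83, 85 and 89 read within the range of the old wild types (707.7 to 1256), and dwarf 87 below it. Of 7 class II markers 3 were called higher in wild type and none lower, 1 was called lower in dwarf and none higher, and 3 differed between the genotypes. The one lower in dwarf was H2-Eb1, a class II beta chain (-0.76 ± 0.22, adjusted p = 0.0271), which was called without dwarf 83 or 87 and not without any other dwarf (adjusted p from 0.0597 to 0.092). The summed signal of the 11 on the array was 4353 to 7865 and 4108 to 5035 in young and old dwarfs, and 2388 to 4189 and 5428 to 9334 in wild types. Tff3 rose in both genotypes, from 463.4, 77.3, 130.3 and 104.4 to 614.1, 281.2 and 1369 in dwarfs, which overlap (2.06 ± 0.56, adjusted p = 0.0218), and from 71.3 ± 23.7 (SD, n = 4) to 4430 ± 1921 (SD, n = 3) in wild type (5.88, adjusted p = 1.13e-04), a difference of -3.82 (adjusted p = 0.0219, called in 11 of 14 fits). Its dwarf call was lost without dwarf 3, 8, 85, 87 or 89 (highest adjusted p = 0.107).

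Igfbp2 (-3.55), Ahnak (-2.80, adjusted p = 0.0201), Il1rn (-2.78, adjusted p = 0.0327) and Cd63 (-2.63, adjusted p = 0.0171) followed, called in 4, 10, 6 and 13 of the 14 fits. Ahnak, a large scaffold protein, fell in dwarfs from 853.0, 425.6, 475.2 and 924.3 to 282.7, 351.6 and 191.7 (-1.24 ± 0.40, adjusted p = 0.0436, a call kept only without dwarf 85 among the fits leaving out 1 dwarf). Cd63, a tetraspanin of late endosomes, differed by -0.60 in dwarfs (adjusted p = 0.258) and rose in wild type from 145.4 ± 36.8 (SD, n = 4) to 656.7 ± 422.8 (SD, n = 3). Among genes more positive in dwarf, Thrsp, Me1, Fabp2, S100a10 (2.99, adjusted p = 0.00875) and Ces3a (2.59, adjusted p = 0.0288, called in 7 of the 14 fits) had young dwarf signals below those of both wild type groups. Old dwarf signals lay nearer to the wild type values without reaching the 6-month wild type mean in Wfdc21, Orm1, Thrsp, Me1, Fabp2, Ces3a and Igfals.

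**Figure D5:**
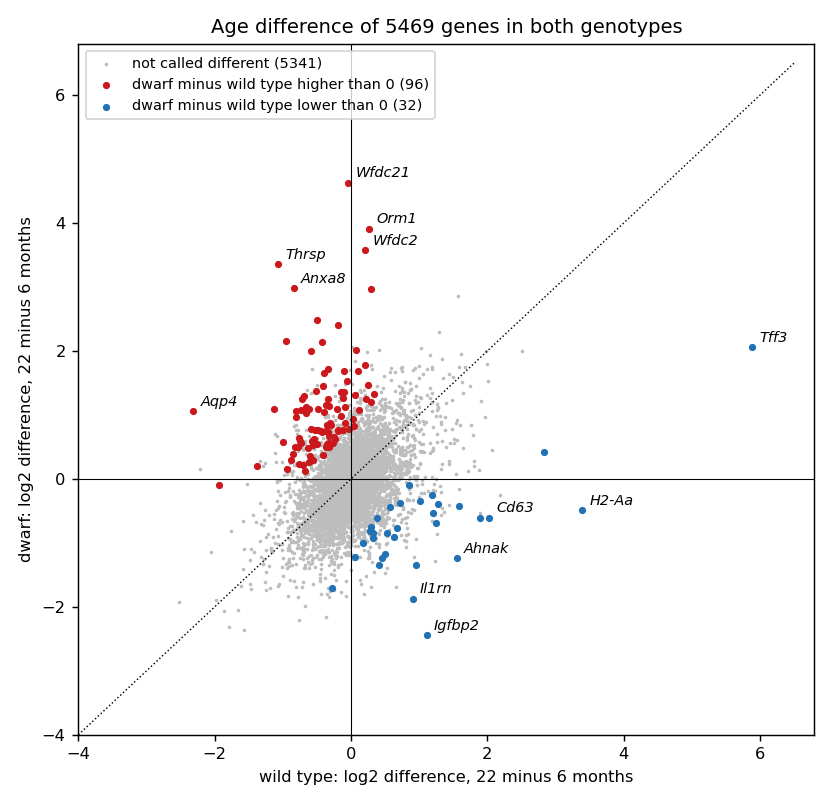
Each point is 1 of the 5469 tested genes, with the wild type age difference on the x axis and the dwarf age difference on the y axis, both log2 of 22 minus 6 months. Red and blue points are the 96 and 32 genes called different between genotypes; Wfdc21 and Orm1 lie high near the wild type zero line, H2-Aa and Tff3 far to the right.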

How the data were processed

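The authors deposited 1 table of MAS5 signal intensity for 14 arrays, a unit named per the submitters' processing notes and per the labels. Trimmed means (2% at each end) of 500.357 to 500.437 show that arrays were scaled to 1 target. Other upstream settings are not given in the sources used here. Signals under 55.0, the 25th percentile over all arrays, were set to it before log2. The 7218 probe sets above the median (185.2) on at least 3 arrays were tested with limma 3.58.1 in R 4.3.3, with 1 mean per group of age and genotype over all 14 arrays, an intensity trend and Benjamini-Hochberg adjustment; calls pass 0.05. Calls were tested on simulated data with independent noise for each probe set. The simulation held no difference in array measures between the ages, so it cannot tell age from these measures. Of 12422 non-control probe sets 10833 carry 1 symbol, 396 several and 1193 none in the platform annotation. A gene (5469 tested) is its probe set of highest mean. Array number limits precision, and p-values rest on the spread between mice within groups, 1 array each, pooled over the 4 groups. With the dwarf arrays alone 1030 probe sets were called in place of 1192.

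Members and lists were chosen with earlier results of these data known. The rule named a fixed set, the 12 largest non-overlapping changes each way, the 6 largest genotype differences each way and leading members of each list, 163 genes with 10 lipid genes added after their values were seen. The text names 108: list members whose call changed without 1 dwarf array were mostly passed over.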

Additional observations from a re-analysis of the deposited data

Results flagged for a closer look

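In 6 of 112 groups of 4 young dwarf signals 1 mouse stood apart by Dixon's criterion, close to the 1 in 20 groups that chance gives. Its gap to the nearest mouse over the range of the group was 1.0 for Anxa8 and Dio1, where the other 3 mice sat at the floor, 0.958 for Gldc, 0.87 for Ctsd, 0.863 for Tff3 and 0.861 for Cdkn1a.

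The age difference in dwarf minus that in wild type passed an adjusted p of 0.05 in limma for 34 of the genes named. On the log2 scale it was above 0 for Wfdc21 (4.67), Thrsp (4.42), Anxa8 (3.82), Orm1 (3.65), Aqp4 (3.37), Wfdc2 (3.37), Fabp2 (3.11), S100a10 (2.99), Orm3 (2.67), Ces3a (2.59), Me1 (2.58), Acot1 (2.22), Igfals (2.05), Ehhadh (1.96), Alas2 (1.89), Aldh1a7 (1.86), Cyp4a14 (1.83), Mttp (1.78), Gldc (1.59), Pklr (1.59), Hsd17b4 (1.59), Elovl5 (1.57), Prdx3 (0.96), Aldh1a1 (0.95), Gstm3 (0.90) and Ghr (0.88). It was below 0 for H2-Eb1 (-1.43), Hspa1b (-1.66), Cd63 (-2.63), Il1rn (-2.78), Ahnak (-2.80), Igfbp2 (-3.55), Tff3 (-3.82) and H2-Aa (-3.88). Some of these calls held in few of the 14 fits that leave out 1 array: 2 for Orm3, 3 for Aldh1a1, 4 for Gldc and Igfbp2, 6 for Gstm3 and Il1rn, 7 for Igfals and Ces3a.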

How the results depend on the processing

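No paired analysis was possible because the animal numbers of the groups differ and no label ties mice across groups. There were 26 settings. Of the 85 called genes named in the text 9 were called with each covariate; since many were named for keeping their call without any 1 dwarf, the share kept there is no measure of stability.

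In dwarfs 574 probe sets were higher and 618 lower. These counts were 80 and 48 with the 18S covariate, 34 and 10 with the 3' over 5' covariate, and 933 and 242 after median scaling; leaving out 1 dwarf gave 291 to 697 higher and 232 to 758 lower. The 158 differences between genotypes became 57 with the 3' over 5' covariate, 69 without the signal filter, 64 without the intensity trend and 48 to 169 without 1 array. The 180 wild type calls became 5 with the 18S covariate, 472 with array weights, 107 after median scaling, 102 without the filter, 90 without the trend and 60 to 457 without 1 array. The cause was not tested.

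Signs turned in these uncalled or weakly called genes. With the 18S covariate the differences were -0.051 for Cyp2b9, 0.21 for Hsd3b5, -0.30 for Nr1i3 and 0.18 for Ppara. With the 3' over 5' covariate they were 0.19 for Cd63, -0.011 for Cdkn1a, -0.57 for Cyp2b9, 0.51 for Hsd3b5, -0.57 for Nr1i3, 0.022 for Ppara and -0.88 for Saa2. After median scaling they were 0.10 for Cyp4a14, 0.15 for Hsd3b5 and 0.13 for Ppara, after quantile normalisation 0.014 for Alb, 0.0 for Dio1 and 0.22 for Hsd3b5. Hsd3b5 was 0.16 with a floor at the 10th percentile, 0.11 with a pseudocount of 16 and -0.32 to 0.29 without 1 dwarf (above 0 without dwarf 3, 83 or 85). Ppara was 0.011 with array weights and -0.20 to 0.12 without 1 dwarf, and Cyp4a14 -0.23 to 0.089, both above 0 without dwarf 8. Signals near the floor limit the decreases.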
